A study of Mus musculus with 6 samples.

Results

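The Ly6 genes on chromosome 15 that were examined here are Psca, Slurp1, Lypd2, Lynx1, Ly6d, Ly6k, Ly6e, Ly6a and Ly6c1. They were taken as the rows of the deposited table whose gene name is one of these 9 symbols, and each symbol matched 1 of the 34745 genes of the table. RNA was sequenced from the prostates of 6 male C57BL/6 mice, with no genetic change named in the labels, that were 6 to 8 weeks old at the start. In the T + E2 group, 3 mice had slow-release pellets of testosterone and estradiol under the skin for 12 weeks, a model of benign prostatic hyperplasia (BPH). In the CON group, 3 mice had only the skin incision and its closure, with no empty pellet. RNA came from prostate tissue of mixed cells, and the sources used here do not say which lobes were taken. A change in the number of cells of a type and a change in RNA per cell cannot be told apart in these values. The model gives both hormones at once, and the effect of testosterone cannot be told apart from that of estradiol.

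Proteins of the Ly6 family are small and carry a three-finger fold that is held together by disulfide bonds between cysteines at fixed places. Most of them are tied to the outer cell membrane by a glycosylphosphatidylinositol (GPI) anchor, while a few such as Slurp1 are secreted, and several bind nicotinic acetylcholine receptors. In the prostate, Psca (prostate stem cell antigen) and Ly6a (Sca-1) are known as surface antigens of epithelial cells near the urethra, and Ly6d as a marker of luminal progenitor cells.

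The cysteine codons behind the shared fold can be marked in the coding sequences. The spliced coding strand of a GENCODE M21 transcript on build GRCm38 is shown for the 4 members with the most stable rise, and for Lynx1, which did not pass the test. Capitals mark the codons of cysteine, and each run goes from the first cysteine of the domain to the asparagine codon that follows its last cysteine.
Psca: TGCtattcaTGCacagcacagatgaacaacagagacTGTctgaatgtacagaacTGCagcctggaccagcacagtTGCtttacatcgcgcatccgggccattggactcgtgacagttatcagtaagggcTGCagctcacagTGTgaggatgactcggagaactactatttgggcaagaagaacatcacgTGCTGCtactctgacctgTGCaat
Ly6e: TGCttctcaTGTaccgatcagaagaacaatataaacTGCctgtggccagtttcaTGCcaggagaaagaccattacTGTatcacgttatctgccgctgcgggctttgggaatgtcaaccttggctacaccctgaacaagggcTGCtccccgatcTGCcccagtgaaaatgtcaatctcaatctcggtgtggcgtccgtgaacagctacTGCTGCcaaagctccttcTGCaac
Ly6a: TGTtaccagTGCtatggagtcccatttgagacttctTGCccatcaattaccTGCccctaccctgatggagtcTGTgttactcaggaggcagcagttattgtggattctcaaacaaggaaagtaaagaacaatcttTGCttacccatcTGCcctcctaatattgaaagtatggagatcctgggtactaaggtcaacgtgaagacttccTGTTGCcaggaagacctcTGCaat
Ly6c1: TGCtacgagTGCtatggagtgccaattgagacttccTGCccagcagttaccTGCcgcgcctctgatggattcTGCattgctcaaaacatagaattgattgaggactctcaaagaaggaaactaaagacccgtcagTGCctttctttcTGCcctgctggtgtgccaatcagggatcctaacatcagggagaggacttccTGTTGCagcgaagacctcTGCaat
Lynx1: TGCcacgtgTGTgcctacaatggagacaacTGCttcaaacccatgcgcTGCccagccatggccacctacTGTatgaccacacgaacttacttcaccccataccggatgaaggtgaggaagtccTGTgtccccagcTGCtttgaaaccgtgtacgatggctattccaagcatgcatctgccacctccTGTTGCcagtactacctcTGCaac
The stretch was found by an adjacent pair of cysteine codons near its end and was set to hold 10 cysteine codons. That count is therefore not a result. In each of the 9 genes 2 codons lay between the first pair, and an asparagine codon followed the last cysteine of the stretch. The stretch began at codon 23 in Psca, Ly6d, Ly6k and Lynx1, at codon 25 in Lypd2 and Slurp1, and at codon 29 in Ly6a, Ly6c1 and Ly6e. Between members the letters of the stretch differed. Ly6a and Ly6c1 were the closest pair, with 71.9% of alignment columns identical, gap columns included. Psca shared from 45.1% with Ly6k to 53.2% with Ly6e on the same measure. A baseline from unrelated sequences was not computed.

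In the whole table, between 14816146 and 16555549 reads per mouse were counted on genes, and 15580 genes had enough counts for edgeR's quasi-likelihood test, with p adjusted by Benjamini and Hochberg's method. Prostate secretory genes were abundant in every mouse. Probasin (Pbsn) had 12356 to 16646 CPM (counts scaled to a common library size by TMM) in the CON mice and 1259 to 1754 CPM in the T + E2 mice. Replicate 2 of each group stood apart. The summed level of 8 seminal vesicle markers was 10325 CPM in CON replicate 2 and 643 CPM in T + E2 replicate 2, against 0.629 to 4.11 CPM in the other 4 mice. Values without these mice are therefore given where they differ.

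Of the 9 members, 5 rose in the T + E2 group at an adjusted p under 0.05, namely Psca, Ly6c1, Ly6e, Ly6a and Ly6k. Ly6d and Lynx1 were tested and did not pass, and Lypd2 and Slurp1 had too few counts for the test. Among all tested genes 10.4% were called higher, 9.25% were called lower and 19.6% were called in either direction. No member was called lower by edgeR. Of the 7 tested members, 0 had a lower level at an unadjusted edgeR p under 0.05. No member with counts had a lower level at an adjusted p under 0.05 from DESeq2. Lypd2, whose T + E2 values were all below the CON values, had no p in the main fit. Each of the 5 that rose also had a log2 fold change over 1, which makes it a differentially expressed gene (DEG), as were 4.27% of all tested genes in this direction. For 6 tested members the groups did not overlap, each with every T + E2 mouse above every CON mouse. Counted in either direction, groups did not overlap for 40.7% of all tested genes. All fold changes below compare T + E2 with CON and come from the same fit over all 15580 genes, whose median log2 fold change was -0.002.

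**Figure D1:**
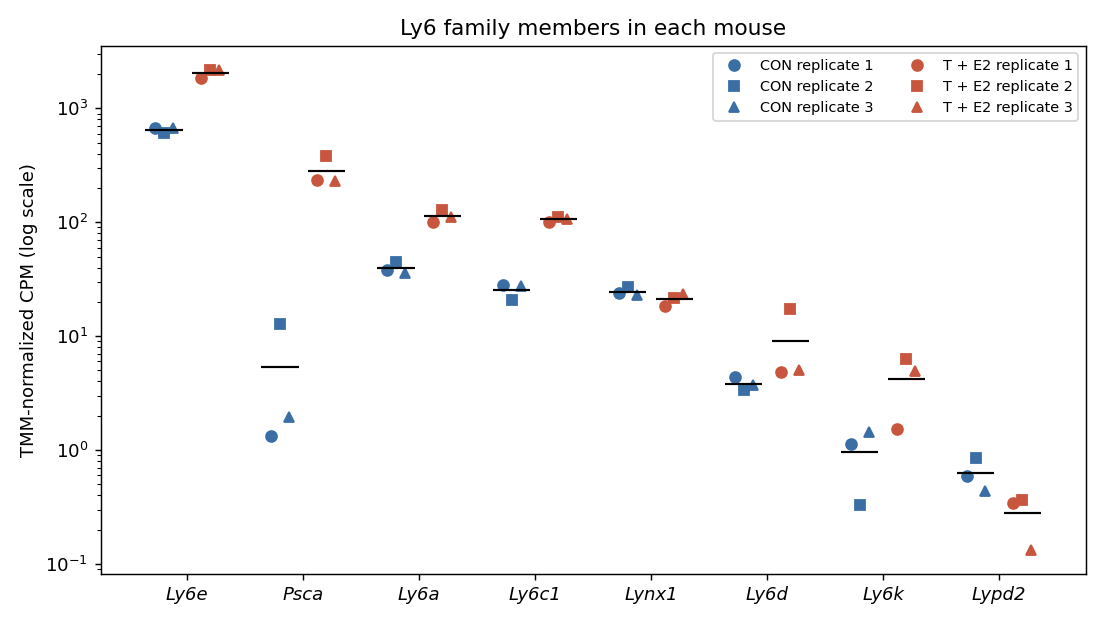
TMM-normalized CPM (log scale) of 8 members in each mouse, with CON in blue, T + E2 in red, a marker shape per replicate and a black line at the group mean. Ly6e, Psca, Ly6a and Ly6c1 separate the groups clearly, Lynx1 overlaps, and a single T + E2 mouse carries the mean of Ly6d. Slurp1 is left out because it had no counts.

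Psca (ENSMUSG00000022598, chromosome 15, 74714839 to 74717069, plus strand) encodes a GPI-anchored antigen of prostate, bladder and stomach epithelium. It had 1.32, 12.7 and 1.95 CPM in CON replicates 1, 2 and 3, from 20, 194 and 31 reads. In the T + E2 mice it had 233, 383 and 230 CPM, from 3363, 6297 and 3445 reads. The groups were far apart, although the CON mice differed among themselves by 9.63-fold and the T + E2 mice by only 1.67-fold. The mean was 5.34 ± 6.42 CPM in CON and 282 ± 87.8 CPM in T + E2 mice (SD, n = 3), a fitted 52.9-fold rise, or 5.72 on the log2 scale, with a standard error (SE) of 0.75 and an adjusted p of 0.00178 by edgeR. By size this was rank 35 among the log2 fold changes of the 15580 tested genes. The high CON value belongs to replicate 2, the mouse with the most seminal vesicle transcripts. Without that mouse the log2 fold change was 7.41, and without replicate 2 of both groups it was 7.13 (SE 0.19, edgeR adjusted p = 0.000124). The part of seminal vesicle tissue in the Psca counts was not tested.

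Ly6e (ENSMUSG00000022587, 74955051 to 74959905, plus strand) encodes a GPI-anchored protein that interferon induces and that limits the entry of several viruses. It was the most abundant member in counts, with 668, 613 and 673 CPM in the CON mice and 1841, 2174 and 2156 CPM in the T + E2 mice. Every T + E2 value was well above every CON value, and replicates differed by at most 1.18-fold. Its mean went from 651 ± 33.6 to 2057 ± 188 CPM (SD, n = 3), a 3.16-fold rise (log2 fold change 1.66, SE 0.11, edgeR adjusted p = 6.25e-05).

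Ly6a and Ly6c1 follow Ly6e on the chromosome, on the minus strand. Ly6a (ENSMUSG00000075602, 74994877 to 74998031) encodes Sca-1, a surface marker of blood stem cells and of prostate epithelial progenitors. Its level was 38.1, 44.6 and 36.0 CPM in the CON mice and 101, 128 and 110 CPM in the T + E2 mice, with no overlap. The 2.86-fold rise (log2 fold change 1.52, SE 0.13, edgeR adjusted p = 0.000199) was close in size to that of Ly6e.

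Ly6c1 (ENSMUSG00000079018, 75044018 to 75048830) encodes an antigen known from endothelial cells, monocytes and T cells. It had 28.1, 20.7 and 27.6 CPM in the CON mice and 101, 112 and 107 CPM in the T + E2 mice. The T + E2 mice were alike within 1.11-fold and all lay far above the CON mice. Its 4.18-fold rise was a log2 fold change of 2.06 (SE 0.13, edgeR adjusted p = 5.79e-05).

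The transcripts of Ly6a and Ly6c1 were 96.6% identical over 263 bases, and Ly6c1 and Ly6c2 were 99.3% identical over 140 bases. Reads may thus have been misplaced among them or left uncounted, and their single values are uncertain. Counts of Ly6a, Ly6c1, Ly6c2, Ly6i and Ly6f summed and tested as 1 gene gave a log2 fold change of 1.73 (SE 0.10, edgeR adjusted p = 3.37e-05). This sum holds the counts of Ly6a and Ly6c1, which each rose, so its rise is not separate support. It also cannot bring back reads that were left uncounted, so the uncertainty of the single values stays. Per kilobase of exon, the ratio of Ly6a to Ly6c1 was 1.89, 3.00 and 1.81 in CON against 1.40, 1.59 and 1.43 in T + E2 mice, so Ly6a was the higher of the pair on this scale in all 6 mice. From the deposited FPKM, which use another length, it was 1.29, 2.06 and 1.24 in CON against 0.960, 1.09 and 0.981 in T + E2 mice, so the order within T + E2 mice turned on the length.

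Ly6k (ENSMUSG00000044678, 74796874 to 74799986, minus strand) encodes a GPI-anchored protein that sperm need to migrate into the oviduct. It was low, at 1.13, 0.329 and 1.45 CPM in the CON mice and 1.52, 6.27 and 4.94 CPM in the T + E2 mice. T + E2 replicate 1 lay just above the highest CON mouse. The log2 fold change was 2.13 (SE 0.61, edgeR adjusted p = 0.0446). The call was lost in 11 of 16 alternative fits, among them those without any single mouse other than T + E2 replicate 1, where the adjusted p was 0.0705 to 0.145, and the one without replicate 2 of both groups (0.240). Gm17189, an antisense transcript with at most 7 reads in a mouse, covers all 3113 bases of Ly6k on the opposite strand, and the strand setting of the counting is not given in the sources used here.

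Ly6d (ENSMUSG00000034634, 74762056 to 74763620, minus strand) is known from squamous and basal epithelium, from early B cells and from luminal progenitors of the prostate. Its level was 4.37, 3.35 and 3.71 CPM in the CON mice and 4.84, 17.4 and 5.01 CPM in the T + E2 mice. T + E2 replicate 2 was 3.58-fold above the lowest mouse of its group, and the other 2 were just above the CON mice. The log2 fold change of 1.25 (SE 0.49, edgeR adjusted p = 0.113) did not pass, although DESeq2 gave an adjusted p of 0.0311. Without T + E2 replicate 2 the log2 fold change was 0.37 (edgeR adjusted p = 0.326).

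Of the markers of stratified squamous epithelium, 2 were also high in that mouse alone. The summed level of the list over 12 genes was 34.9 CPM in T + E2 replicate 2 and 7.16 to 8.41 CPM in the other 5 mice. The sum rested on involucrin (Ivl), a protein of the cornified envelope, at 7.49 CPM against 0 to 0.133 CPM elsewhere, and on Sprr1a, another envelope protein, at 23.6 CPM against 2.54 to 4.24 CPM. The other 10 markers summed to 3.84 CPM in that mouse and 3.97 to 5.74 CPM in the others, and of these Sprr1b and Sprr3 were at 0 in every mouse. The urothelial genes Krt20 and Upk3a reached 7.31 and 6.03 CPM there and at most 0.415 CPM in any other mouse. The sum of all 7 urothelium markers was 1596 CPM there, between the 1704 and 1376 CPM of the other T + E2 mice. Most of that sum was Upk1a in each T + E2 mouse (values below), so changes of a few CPM in other markers could not show in it. Ivl, Sprr1a, Krt20 and Upk3a were singled out after their values were seen. The part of squamous or urothelial cells in the Ly6d level was not tested.

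Lynx1 (ENSMUSG00000022594, 74747852 to 74753046, minus strand) encodes a GPI-anchored protein that damps nicotinic acetylcholine receptors. It had 23.9, 26.7 and 22.8 CPM in the CON mice and 18.3, 21.7 and 23.5 CPM in the T + E2 mice. The groups overlapped, and the log2 fold change of -0.21 (SE 0.12, edgeR adjusted p = 0.273) did not pass. It was negative in all 16 alternative fits, from -0.29 to -0.11.

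Lypd2 and Slurp1 lie between Psca and Lynx1. Lypd2 (ENSMUSG00000022595, 74732247 to 74734329, minus strand) had 9, 13 and 7 reads in the CON mice and 5, 6 and 2 reads in the T + E2 mice. All T + E2 values were below the CON values, but a fit with no filter on low counts gave a log2 fold change of -1.13 (SE 0.55, edgeR adjusted p = 0.224), which did not pass. Slurp1 (ENSMUSG00000022596, 74724318 to 74728034, minus strand), which encodes a secreted ligand of nicotinic receptors in skin, had 0 reads in every mouse. A count of 0 allows up to 3 reads, or 0.181 to 0.202 CPM before TMM scaling, and covers counting error only.

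**Figure D2:**
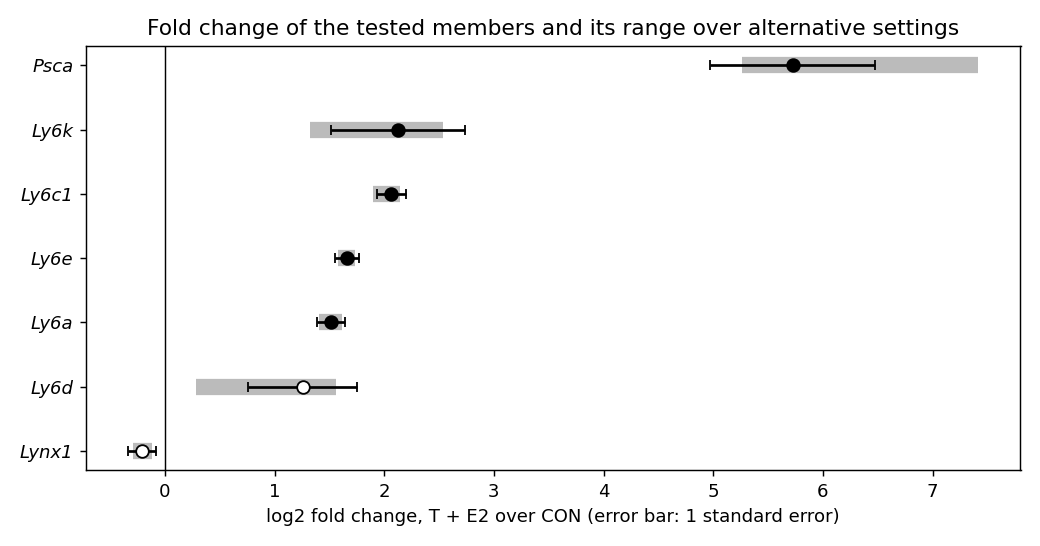
Log2 fold change of the 7 tested members (x axis) with 1 standard error, filled where the adjusted p was under 0.05. Grey bars span the alternative fits, without the one that sums paralogs. Psca lies at 5.72 with a range of 5.27 to 7.41, Ly6e, Ly6a and Ly6c1 have narrow ranges, and the range of Ly6d reaches down to 0.29.

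Levels of different members can be set side by side only per length. The length behind the deposited FPKM values was 12485 bases for Ly6e, longer than the whole gene at 4855 bases, and equalled the sum of all distinct exons of its transcripts. This sum matched the implied length within 1% for 71.0% of 16657 genes, and the length of merged exons for 15.4%. FPKM therefore understates genes with many overlapping exons, and CPM per kb of merged exons (3784 bases for Ly6e, 860 for Psca) was used instead. On this scale the order in the CON mice was Ly6e (172 ± 8.88), Ly6a (32.8 ± 3.74), Ly6c1 (15.2 ± 2.47), Psca (6.21 ± 7.47), Lynx1 (5.25 ± 0.44), Ly6d (5.12 ± 0.70), Ly6k (1.17 ± 0.69), Lypd2 (0.928 ± 0.308) and Slurp1 (SD, n = 3). Psca, Lynx1 and Ly6d did not differ beyond their spread, nor did Ly6k and Lypd2.

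In the T + E2 mice Psca stood next to Ly6e, above Ly6a and Ly6c1. The order was Ly6e (544 ± 49.6 CPM per kb), Psca (328 ± 102), Ly6a (94.0 ± 11.3), Ly6c1 (63.6 ± 3.30), Ly6d (12.2 ± 9.65), Ly6k (5.12 ± 2.96), Lynx1 (4.54 ± 0.56), Lypd2 (0.415 ± 0.189) and Slurp1. Ly6d, Ly6k and Lynx1 could not be ordered beyond their spread. The level of Psca over that of Ly6e was 0.556, 0.776 and 0.469 in the T + E2 mice per kb of merged exons. From the deposited FPKM it was 1.84, 2.56 and 1.55, so which of these was the more abundant turned on the length used. In the CON mice the ratio was 0.00873 to 0.0916 per kb of merged exons.

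The summed level of the 9 members was 238.0 to 239.7 CPM per kb in the CON mice and 914, 1230 and 1010 CPM per kb in the T + E2 mice. Psca made up 0.642%, 6.23% and 0.949% of that sum in CON against 29.6%, 36.3% and 26.5% in T + E2 mice. Ly6e made up 73.6%, 68% and 74.5% in CON against 46.7 to 56.4% in T + E2 mice. The sum was higher in every T + E2 mouse, and its make-up moved from mostly Ly6e to Ly6e and Psca.

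**Figure D3:**
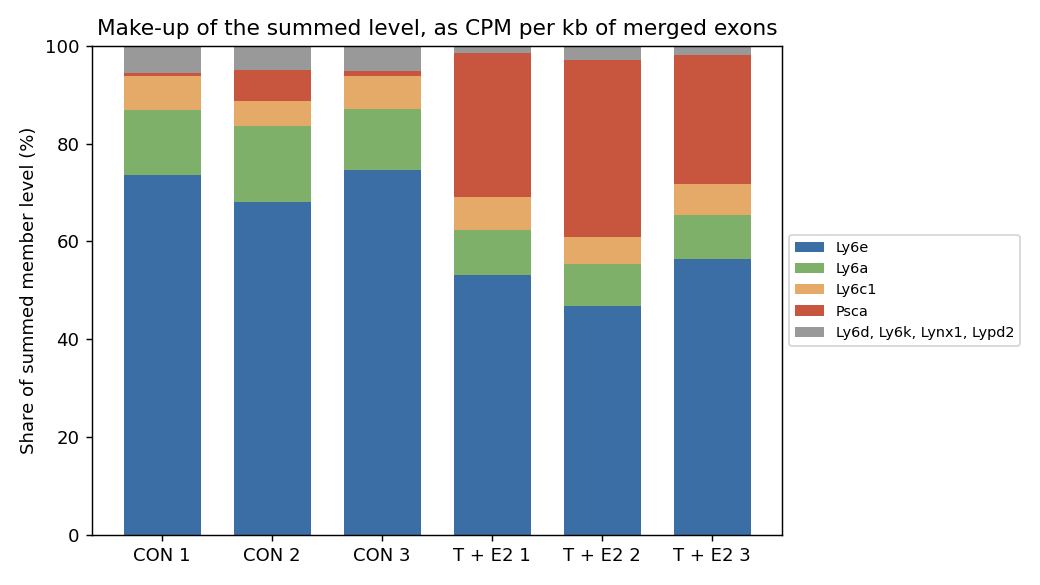
Share of each member in the summed level (%), computed from CPM per kb of merged exons, in each of the 6 mice. Psca takes 26.5 to 36.3% in the T + E2 mice and at most 6.23% in the CON mice.

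The 9 genes span 334 kb of chromosome 15, from 74714839 to 75048830. Within this stretch lie 16 other genes of the table, of which 7 had no counts in any mouse and 1, Them6, was tested. Them6, which starts between Psca and Slurp1, had a log2 fold change of 0.004 (SE 0.15, edgeR adjusted p = 0.987). The members that rose were not contiguous. Psca at one end was followed by Slurp1 and Lypd2, which were hardly detected, and by Lynx1 and Ly6d, which did not pass. Ly6k is 155 kb away from Ly6e, which is followed by Ly6a and Ly6c1 with gaps of 35.0 and 46.0 kb. No gene between Ly6k and Ly6e passed the filter on low counts, and Cyp11b1 and Cyp11b2, the genes of the last steps of corticosteroid and aldosterone synthesis, were at 0 in every mouse.

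**Figure D4:**
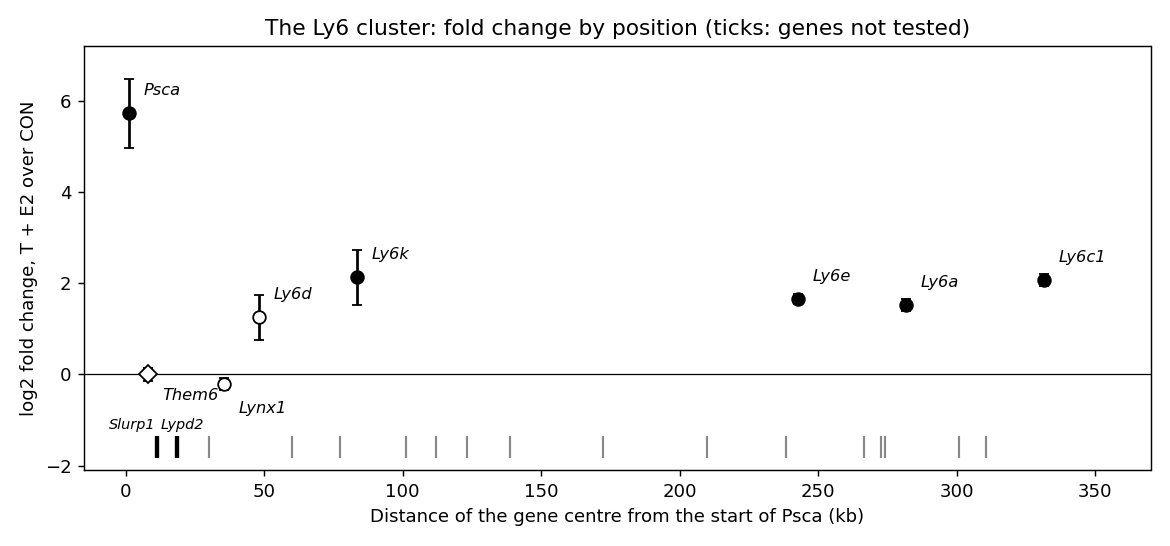
Log2 fold change with 1 standard error against the distance of each gene's centre from the start of Psca in kb. Circles are members and the diamond is Them6, filled symbols passed the test, and ticks are genes that were not tested (black for members). Psca stands at one end and Ly6e, Ly6a and Ly6c1 at the other, with Them6 and Lynx1 near 0.

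Across the 6 mice, the genes whose centred log2 CPM came nearest to that of Psca, by root mean square difference, were Neb (0.56), Spink11 (0.79), Ugt2b35 (0.82), Ctse (0.87) and Vstm2b (0.87). Neb encodes the muscle protein nebulin and Ctse the aspartic protease cathepsin E. Neb had 0.861, 9.73 and 3.14 CPM in the CON mice and 221, 170 and 144 CPM in the T + E2 mice, so CON replicate 2 was high for it as for Psca. Ly6a was nearest to Fcamr, Ahnak, Isg20, Gipc2 and Golm1 (0.08 to 0.11), and Ly6e to Zfp12, Ahnak, 1810064F22Rik, P2rx6 and Naip1 (0.10 to 0.13). For Ly6c1 the nearest were Wfdc3, Aqp9, Fut4, Soat1 and Defb48 (0.08 to 0.15), and for Ly6k Mum1l1, Igkv9-120, Fam196b, Adh7 and Ighv1-78 (0.35 to 0.44). Among the members, Ly6a and Ly6e were 0.16 apart, Ly6c1 and Ly6e 0.23, and Ly6a and Ly6c1 0.37. Psca was 2.42 to 3.41 from every other tested member. These distances rank likeness over 6 mice and carry no test.

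The wider Ly6/uPAR family lies on other chromosomes as well as in this cluster. Of 50 listed genes, 47 are in the table, 17 were at 0 in every mouse and 13 were tested. Of these 3 rose, 2 fell and 8 did not pass, with a median log2 fold change of 0.20. The Pate genes encode small secreted Ly6-like proteins of the male reproductive tract, and they moved in opposite directions. D730048I06Rik (Pate6) had 0, 0.197 and 0.189 CPM in the CON mice and 17.6, 7.31 and 9.81 CPM in the T + E2 mice, and its rise passed the test (edgeR adjusted p = 0.000371). With 6 reads over the CON mice and 522 over the T + E2 mice, the ratio per library size was 87.7 (exact 95% interval 40.02 to 240.1, counting error only). A630095E13Rik (Pate14) went from 860, 998 and 1586 to 110, 58.5 and 30.5 CPM and fell by 4.11 on the log2 scale (SE 0.48, edgeR adjusted p = 0.000997). Gm5615 (Pate9) had 1191, 818 and 1059 CPM in the CON mice and 661, 442 and 403 CPM in the T + E2 mice. It fell by 1.03 (SE 0.21, edgeR adjusted p = 0.0132).

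Acrv1, a gene of the sperm acrosome, went from 5.10, 5.26 and 4.78 to 18.5, 14.2 and 12.9 CPM, a log2 fold change of 1.59 (edgeR adjusted p = 0.000695). Lypd3, which encodes a GPI-anchored protein of squamous and urothelial cells, had a log2 fold change of 1.11 (edgeR adjusted p = 0.0326) and lost its call when any 1 of CON replicates 2 and 3 and T + E2 replicates 1 and 2 was left out. Without T + E2 replicate 2 the called genes of this list went from 5 to 3, since Lypd3 (edgeR adjusted p = 0.105) and Gm5615 (edgeR adjusted p = 0.0586) were lost. Pate4, which the seminal vesicle makes and which is also in that marker list, had 383 CPM in CON replicate 2, 41.9 CPM in T + E2 replicate 2 and at most 0.277 CPM elsewhere, and it was not tested.

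Of 29 tested genes that build and attach the GPI anchor, 4 rose, 2 fell and 23 did not pass. The called share of 20.7% was near the 19.6% of all tested genes, and the median log2 fold change was -0.006. Pigk, the catalytic subunit of the transamidase that joins the anchor to the protein, had 34.2, 43.7 and 51.9 CPM in the CON mice and 108, 111 and 94.0 CPM in the T + E2 mice. Its log2 fold change was 1.27 (SE 0.16, edgeR adjusted p = 0.00127). Pigt, another subunit of the transamidase, rose by 0.60 (edgeR adjusted p = 0.00642), and Pgap1, which removes the acyl chain from the inositol of the attached anchor, rose by 1.05 (edgeR adjusted p = 0.00214). The other subunits on the list, Pigs, Pigu and Gpaa1, had log2 fold changes of 0.18, -0.05 and 0.23 and did not pass. Without replicate 2 of both groups 3 of the 6 calls were left.

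Of the 7 nicotinic receptor subunits tested, 2 fell and 5 did not pass, with a median log2 fold change of -0.80. Their log2 fold changes went from -1.33 to 1.57, and the subunit at 1.57 did not pass. Chrnb4 fell by 1.33 (SE 0.36, edgeR adjusted p = 0.0373) and Chrnb2 by 0.61 (SE 0.17, edgeR adjusted p = 0.0401). With single mice left out, Chrnb2 kept its call only without CON replicate 3. Chrnb4 kept its call only without T + E2 replicate 1 or without T + E2 replicate 3. No single mouse could be left out with both calls kept. Chrna3 had 28.6, 24.8 and 18.2 CPM in the CON mice and 4.70, 15.3 and 15.5 CPM in the T + E2 mice (log2 fold change -1.01, edgeR adjusted p = 0.108).

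Interferon is known to induce Ly6e and Ly6a, and other interferon-stimulated genes were read beside them. Of 20 tested, 2 rose, 7 fell and 11 did not pass, and the median log2 fold change was -0.42. Their summed level was 409 to 417 CPM in the CON mice and 326 to 358 CPM in the T + E2 mice. Mx1, an antiviral GTPase, fell by 1.12 (SE 0.19, edgeR adjusted p = 0.00609) and Oas2, a sensor of double-stranded RNA, had a log2 fold change of 1.17 (SE 0.17, edgeR adjusted p = 0.00308). Ifi44 fell by 1.01 (edgeR adjusted p = 0.0414), a call that was lost with any single mouse other than T + E2 replicate 1 left out (0.0693 to 0.105). The number of calls on this list went from 9 to 6 without T + E2 replicate 1 and to 4 without replicate 2 of both groups. These 4 were Bst2 and Oas2, which rose, and Oasl2 and Stat2, which fell, while Mx1 was lost (edgeR adjusted p = 0.0717). The part of interferon in the levels of Ly6e and Ly6a was not tested.

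Markers of cell types in which members are known to be expressed were read beside them. Of 8 proximal luminal markers, 2 rose. Krt7 (log2 fold change 3.05, edgeR adjusted p = 0.000416) and Wfdc2 (1.22, edgeR adjusted p = 0.00634) passed, while Krt4, Krt19, Clu, Cldn4, Ppp1r1b and Cyp2f2 did not. The summed level of these 8 genes was 1438 to 1486 CPM in the CON mice and 1803 to 1964 CPM in the T + E2 mice. The groups did not overlap in this sum. The called share of 25% of the list was near the 19.6% of all tested genes. Of 5 urothelium markers tested, 3 rose and Gsdmc2 fell. Upk1a, a plaque protein of the urothelium, went from 274, 503 and 345 to 1422, 1315 and 1180 CPM, and Upk2 from 0.629 to 0.920 CPM up to 2.70 to 4.99 CPM. Without T + E2 replicate 1, or without T + E2 replicate 2, 2 of the 4 calls were left.

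Endothelial cells are a known source of Ly6c1, and their markers did not pass the test. Of 10 tested, 0 passed by edgeR or DESeq2, and 0 had an unadjusted p under 0.05. Their summed level was 130 to 176 CPM in the CON mice and 157 to 189 CPM in the T + E2 mice, and the groups overlapped. Of 7 monocyte and macrophage markers, 1 rose (Cd14, log2 fold change 0.64) and 1 fell (Cx3cr1, -0.84), with sums of 145 to 213 and 191 to 285 CPM. Both calls were lost without CON replicate 2, CON replicate 3 or T + E2 replicate 2. Of 7 T and B lymphocyte markers tested, Cd79b rose by 2.11 (edgeR adjusted p = 0.00565), and the list had 0 calls without replicate 2 of both groups. Its sums were 6.29 to 14.97 and 11.5 to 16.9 CPM. The 8 neutrophil markers summed to at most 7.67 CPM in a mouse. Basal markers summed to 498 to 539 and 562 to 651 CPM, with Trp63 (log2 fold change 0.57) and Lgals7 (1.12) called of 6, and 1 of these calls was left without CON replicate 2 or without any 1 of the T + E2 mice and 0 without replicate 2 of both groups. Of 7 distal luminal markers tested, 2 rose and 3 fell, led by the fall of Pbsn, by 3.29 on the log2 scale. The 8 genes of this list summed to 40106 to 53118 CPM in the CON mice and 17500 to 19241 CPM in the T + E2 mice. The part of any of these cell types in the members' levels was not tested.

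**Figure D5:**
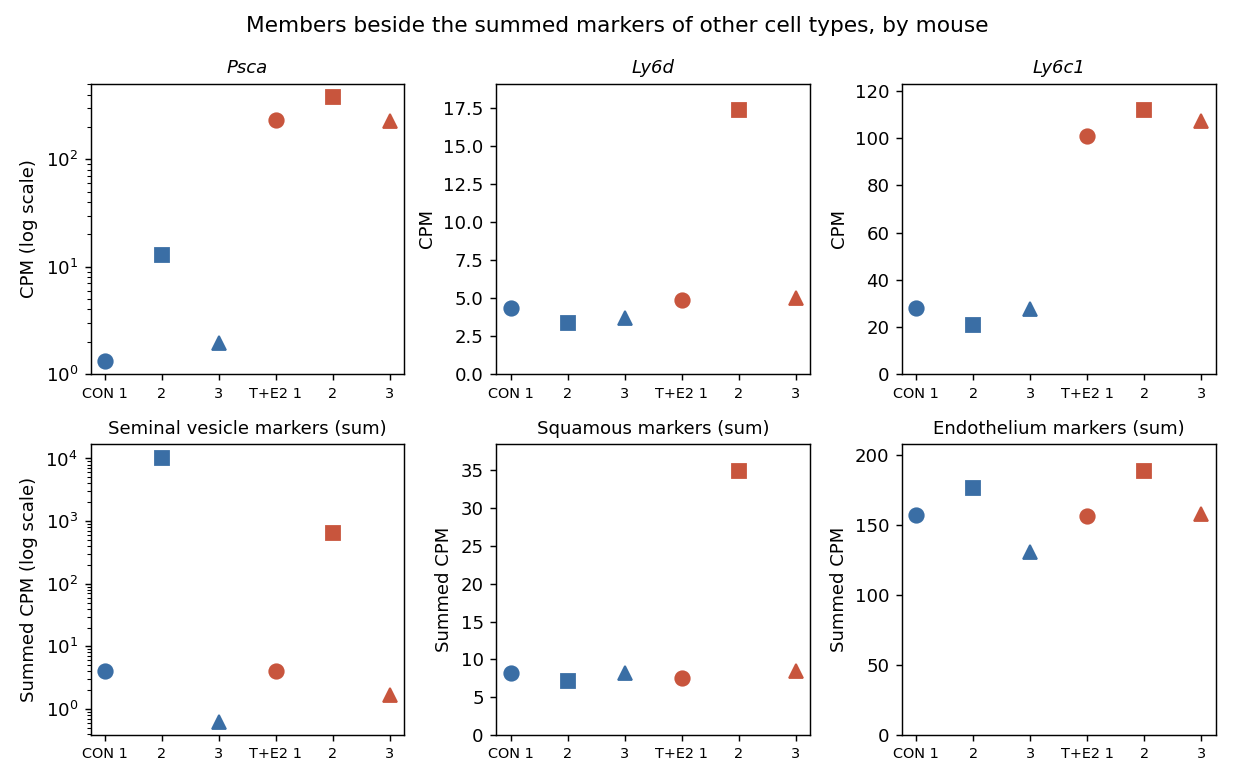
CPM of Psca, Ly6d and Ly6c1 (top) and summed CPM of seminal vesicle, stratified squamous and endothelium markers (bottom) in each mouse, on log axes for the left column and linear axes for the others. Replicate 2 of each group stands out for seminal vesicle markers, T + E2 replicate 2 for Ly6d and the squamous sum, and the endothelium sums of the groups overlap between 130 and 189 CPM.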

How the data were processed

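Prostate RNA of 6 mice was sequenced in pairs of reads from TruSeq libraries. The authors deposited 1 table with, for each mouse, whole-number read counts per gene without normalization and FPKM values. Submitters' notes name TopHat, Bowtie2 and HTSeq, and the paper names DESeq2. Versions, annotation and strand setting are not given in the sources used here. Of the table's identifiers 34344 occur in GENCODE M21 (GRCm38), and all 9 members have the same start and end there. Groups and replicate numbers came from the labels. Members and gene lists were chosen with earlier results of these data known.

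Counts were analysed with edgeR 4.0.16 in R 4.3.3 (filterByExpr with minimum count 10 and minimum total count 15, TMM, quasi-likelihood test, Benjamini-Hochberg adjustment). TMM factors were 0.956 to 1.03 and the biological coefficient of variation 18.0%. The standard error is the log2 fold change over the root of F. A DEG needed both an absolute log2 fold change over 1 and an adjusted p below 0.05. Alternatives used DESeq2 1.42.0, limma 3.58.1 on log2(FPKM + 0.1) or log2(FPKM + 1), other scalings, filters and dispersions, a block for the replicate number, and mice left out. Per-length levels divide CPM by merged exons. Log2 CPM for likeness used a prior count of 2. Of 209 list genes 204 were found, 17 by synonym. A further marker was taken off its list and is not reported here. Transcripts were compared with BLAST+ 2.17.0+ and plots drawn with matplotlib 3.10.9. Pairs of mice within a group differed beyond sampling noise (chi-square over degrees of freedom 16.7 to 36.4), so each was kept as a replicate. The procedure was tested on simulated data.

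Named genes are all members, called genes and the 3 most abundant (by FPKM) of the wider family, up to 3 called genes of each other list with the largest change, tested genes within the cluster, and the 5 genes nearest to each DEG member. Other genes are named where the text says so or to account for a list.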

Additional observations from a re-analysis of the deposited data

How the results depend on the processing

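Psca, Ly6e, Ly6a and Ly6c1 kept their direction and passed in every alternative, with log2 fold changes of 5.27 to 7.41, 1.58 to 1.73, 1.40 to 1.73 and 1.73 to 2.14. The upper end for Ly6a and the lower end for Ly6c1 are the same fit, the one that sums paralogs, and not a value of either gene alone. The highest adjusted p of Psca was 0.0239, with robust dispersion. Between 4 and 6 members passed: DESeq2 added Ly6d, and Ly6k was lost in 11 of 16 alternatives. With single mice left out, 4 or 5 members passed and there were 972 to 1152 DEGs. The 1191 DEGs became 561 with limma on log2(FPKM + 1) and 3061 with the adjusted p alone, since no fold change was then asked for; the cause of the former was not tested. With a block for the replicate number there were 1013 DEGs, 4 members passed and Ly6k had an adjusted p of 0.0992. Over all tested genes, mice with the same number did not deviate together (correlations of -0.052, 0.028 and 0.046). This cannot exclude that the numbers pair the mice in some way, since a pairing that touches few genes would not show. Both replicate 2 mice held seminal vesicle transcripts. An alternative chosen after seeing the data left out replicate 2 of both groups, which left 4 members and 809 DEGs. Slurp1 had no counts to fit, and Lypd2 could be fitted only without the filter on counts, by limma or by DESeq2, with adjusted p of 0.0815 to 0.432. Depth limits what can be said of Lypd2 and Slurp1, with at most 13 reads in a mouse. Each fold change rests on 3 mice a group.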
